A study of Mus musculus with 10 samples.

Results

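The genes described here encode the secreted Wnt ligands, their Frizzled receptors and the proteins that tune the signal between them. A gene was taken when its symbol started with Wnt, Fzd, Sfrp, Dkk or Rspo followed by a digit, and Lgr4, Lgr5, Lgr6, Lrp5, Lrp6, Axin2, Rnf43 and Znrf3 were added by name. This gave 50 of the 53465 genes listed in the lung RNA of 10 BALB/c mice. They comprise 19 Wnt ligands, 10 Frizzled receptors, 4 R-spondins, 4 secreted Frizzled-related proteins, 4 Dickkopf proteins, 3 LGR receptors, 2 LRP co-receptors, 2 E3 ubiquitin ligases and Axin2. The last of the 50 is Rspo4os, an antisense transcript that the rule takes in by its name. The 5 control mice are described as untreated, and the 5 challenged mice received 1 µg of the cytokine IL-33, an epithelial alarmin, in 35 µL through the nose on each of 5 days. Whole lung tissue was taken 24 hours after the last dose. All mice were of the BALB/c strain, and no source used here gives their age, their sex or whether a library pools animals. No vehicle is described for the controls, so instillation and IL-33 cannot be told apart.

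Wnt proteins are lipid-modified ligands that bind Frizzled receptors together with LRP5 or LRP6, which halts the breakdown of beta-catenin and lets it act with TCF and LEF factors in the nucleus. Other Wnt ligands signal without beta-catenin, through planar polarity and calcium pathways. R-spondins amplify the signal by drawing the ligases RNF43 and ZNRF3, which remove Frizzled receptors from the cell surface, to LGR receptors. Secreted Frizzled-related proteins bind Wnt ligands outside the cell, and some Dickkopf proteins, such as DKK1, block the LRP co-receptors. In adult lung, Wnt signals from fibroblasts are known to maintain alveolar type 2 progenitor cells, and Axin2 is the usual readout of cells receiving them.

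Levels are CPM, the reads of a gene per 1000000 reads counted in genes, scaled with TMM factors. A log2 fold change compares IL-33 with control, positive where IL-33 is higher, and comes from edgeR's quasi-likelihood fit. Their SE comes from the spread of log2 CPM over the 5 and 5 libraries. The labels number the mice but do not say how they were housed or handled, so a p-value sets the group difference against the spread between these libraries only. Counted reads came to 8935159 to 13767118 per control library and 7805175 to 13178798 per IL-33 library, so that 3 reads, the limit that a count of 0 allows, stand for 0.218 to 0.384 CPM before TMM scaling. A gene is said to rise or fall where its Benjamini-Hochberg adjusted p was under 0.05. Across the genome 69.9% of 15695 tested genes passed, 35.1% higher and 34.8% lower in IL-33 lungs, so a share near these values says nothing about the Wnt genes. In whole lung, fewer cells of a type and less RNA per cell cannot be told apart.

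Promoters of 31 of the 50 genes were found in RefSeq (GRCm38.p6), each 250 bases before to 50 bases after a transcription start. They were rich in G and C, with a median of 67.7% over 35 member promoters against 52.7% over 32851 promoters in all. The TCF/LEF core motif was searched on both strands as CTTTG followed by AA, AT, TA or TT. It occurred in 5 of the 35 member promoters (14.3%) and in 16.9% of all promoters. Of the 5 genes holding a match, Fzd7 fell, Wnt11 and Wnt5b were tested and not called, and Dkk1 and Wnt3 were too low for the test. The windows of 3 genes that the results turn on are given here on the gene's own strand, 5′ to 3′, with TCF/LEF matches in capitals. They are Wnt10b, the ligand with the largest fall (chr15:98778101-98778400, minus strand), Axin2, the feedback target (chr11:108920099-108920398, plus strand), and Fzd7, a receptor that fell (chr1:59481897-59482196, plus strand).
Wnt10b: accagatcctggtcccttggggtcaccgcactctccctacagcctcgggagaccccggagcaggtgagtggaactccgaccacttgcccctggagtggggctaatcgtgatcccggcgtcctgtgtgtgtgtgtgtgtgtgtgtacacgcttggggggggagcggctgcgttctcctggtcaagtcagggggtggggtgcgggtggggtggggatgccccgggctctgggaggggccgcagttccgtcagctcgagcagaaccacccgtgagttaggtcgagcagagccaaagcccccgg
Axin2: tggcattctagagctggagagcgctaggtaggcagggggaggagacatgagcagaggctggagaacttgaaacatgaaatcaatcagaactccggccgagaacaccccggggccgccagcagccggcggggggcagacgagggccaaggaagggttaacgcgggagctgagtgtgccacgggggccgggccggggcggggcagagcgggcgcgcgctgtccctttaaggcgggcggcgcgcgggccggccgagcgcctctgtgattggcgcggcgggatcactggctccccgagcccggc
Fzd7: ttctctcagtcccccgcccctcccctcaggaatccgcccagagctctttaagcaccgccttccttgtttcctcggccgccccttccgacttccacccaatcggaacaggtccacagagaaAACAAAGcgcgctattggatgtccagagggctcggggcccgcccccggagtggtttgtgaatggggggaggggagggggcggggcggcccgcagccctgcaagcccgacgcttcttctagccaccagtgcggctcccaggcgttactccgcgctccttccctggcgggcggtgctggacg
The match in Fzd7 begins at position -130 from the RefSeq start and is read on the opposite strand. Neither the Wnt10b nor the Axin2 window holds these letters. A match is a description of the sequence only.

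Of the 50 genes, 35 had enough reads for the test. Among these 29 changed (82.9%, against 69.9% of all genes tested), 23 of them lower (65.7%, against 34.8%) and 6 higher (17.1%, against 35.1%). The median log2 fold change of the 35 was -0.73, beside -0.007 over all genes tested. Groups did not overlap for 21 of the 35 genes, near the 56.5% of all tested genes that did not. Of the 21, 18 were lower in IL-33 lungs and 3 higher, beside 27.4% of all tested genes lower and 29.1% higher without overlap. The filter on low counts can pass a gene through its higher group alone. That was so for Fzd10, which reached the cutoff of 0.96 CPM in 5 IL-33 libraries and 1 control library. It was also so for Wnt2b, with 5 control libraries and 2 IL-33 libraries, and for Wnt7b, with 5 and 4. Dkk2, not called, reached it in 5 IL-33 libraries and 4 control libraries. The plot of fold changes by role shows that most ligands and receptors lie left of 0, while the 3 tested secreted Frizzled-related proteins lie right of it.

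**Figure D1:**
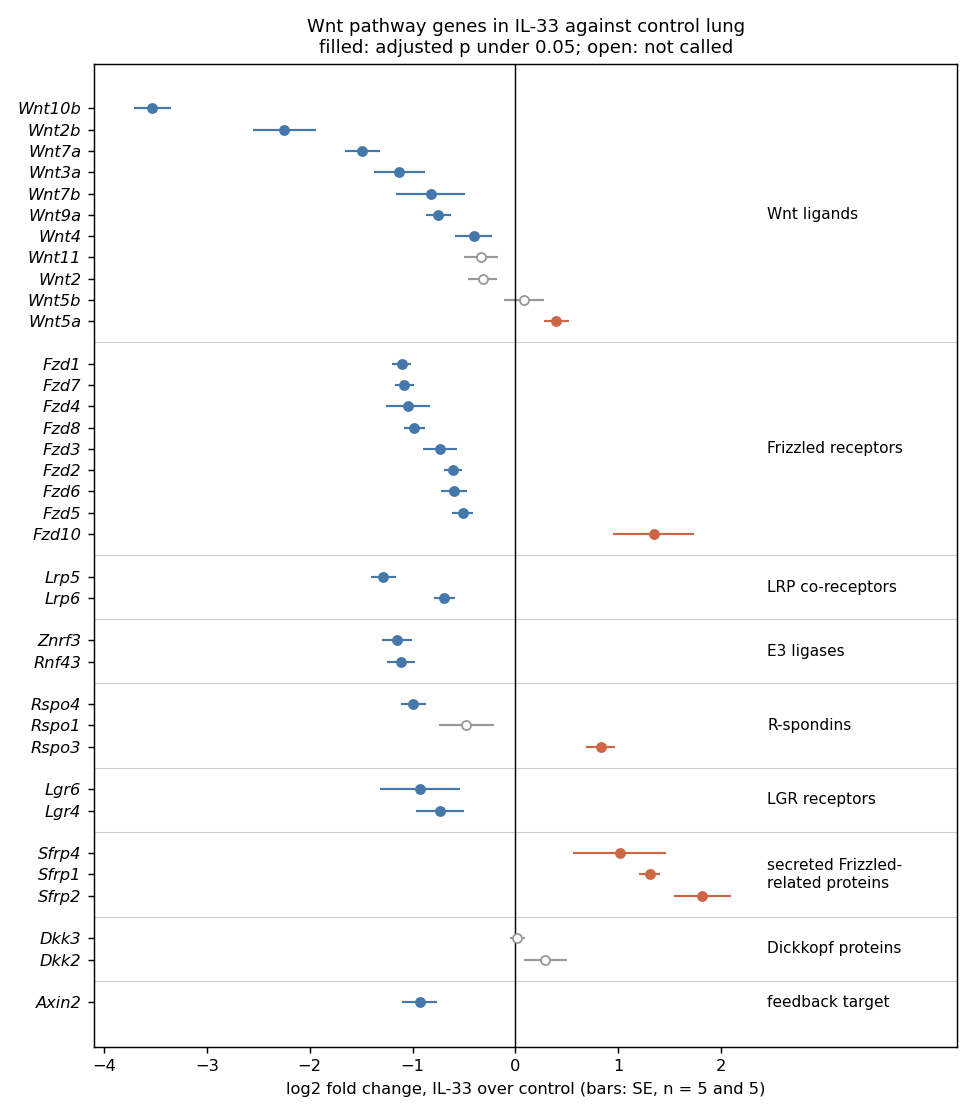
Log2 fold change of IL-33 over control lung for the 35 Wnt pathway genes tested, grouped by role; points are edgeR estimates, bars are SE over 5 and 5 libraries, filled points passed an adjusted p of 0.05 and open points did not. Wnt10b lies farthest left at -3.53 and Sfrp2 farthest right at 1.82.

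Of the 19 Wnt ligands 11 were tested, of which 7 fell, 1 rose and 3 were not called. Over all genes tested 34.8% were lower and 35.1% higher. Wnt10b, a beta-catenin ligand known for holding back fat cell formation (ENSMUSG00000022996, chromosome 15, 98770712 to 98778150, GRCm38), stood at 35.3, 29.0, 30.0, 31.5 and 35.9 CPM in the control libraries. In the IL-33 libraries it stood at 2.17, 2.30, 1.94, 3.43 and 3.64 CPM. Every control library was above every IL-33 library, and the mean went from 32.3 ± 3.10 to 2.70 ± 0.779 CPM (SD, n = 5 each), a log2 fold change of -3.53 ± 0.18 (SE; edgeR adjusted p = 2.31e-09). No other tested gene of the 50 fell as far.

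Wnt2b, the paralog of Wnt2 that acts with it when the lung is first specified, was low in both groups. It held 2.90, 4.60, 4.51, 4.55 and 5.60 CPM in controls and 0.395, 0.574, 1.30, 0.935 and 1.34 CPM after IL-33. The groups did not overlap, and the log2 fold change was -2.25 ± 0.31 (edgeR adjusted p = 1.56e-05). Wnt7a, which acts in limb and uterine patterning, held 17.0, 9.74, 13.0, 16.9 and 14.8 CPM in controls. It held 5.13, 3.90, 5.32, 5.45 and 5.57 CPM in the IL-33 libraries. Its control libraries were more spread than its IL-33 libraries, yet the groups stayed apart (log2 fold change -1.49 ± 0.17, edgeR adjusted p = 3.76e-06).

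Among the ligands with smaller falls, Wnt3a, the one most often used to switch on beta-catenin in cultured cells (chromosome 11, 59248033 to 59290752), held 16.5, 14.0, 18.0, 15.1 and 13.6 CPM in controls. After IL-33 it held 9.47, 3.56, 6.61, 6.78 and 8.40 CPM, so the groups did not overlap (log2 fold change -1.13 ± 0.25, edgeR adjusted p = 0.000173). Wnt9a, a ligand of joint formation that lies 16175 bases from Wnt3a on the opposite strand, held 8.69, 10.3, 10.8, 11.4 and 10.2 CPM in controls and 5.92, 5.63, 4.67, 7.01 and 6.84 CPM after IL-33. It fell by 0.75 on the log2 scale with no overlap (edgeR adjusted p = 0.000213). Wnt7b, a ligand of the developing lung epithelium, held 2.90, 4.92, 4.39, 4.11 and 4.27 CPM in controls and 0.888, 2.18, 1.82, 3.74 and 2.60 CPM after IL-33. The groups overlapped, and its log2 fold change of -0.83 ± 0.33 passed (edgeR adjusted p = 0.0210). Wnt4, known for its part in kidney and ovary development, had the smallest called fall of the 7 and overlapped between groups, with 9.05, 9.74, 9.24, 8.05 and 7.5 CPM in controls and 4.14, 6.08, 7.13, 8.49 and 6.84 CPM after IL-33 (log2 -0.41 ± 0.18, edgeR adjusted p = 0.0455). Leaving out 1 library ended the Wnt4 call for 8 of the 10 libraries, with adjusted p of 0.0542 to 0.0912.

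Wnt5a was the only one of the 11 tested ligands that rose. It is the main ligand of beta-catenin-independent signalling (chromosome 14, 28504750 to 28527448). Its control libraries held 19.9, 22.5, 26.2, 30.4 and 23.2 CPM and its IL-33 libraries 30.3, 28.0, 33.1, 33.7 and 35.4 CPM. Control 4 lay above IL-33 libraries 1 and 2, and the log2 fold change was 0.40 ± 0.12 (edgeR adjusted p = 0.00588). Its near relative Wnt5b was not called, at 3.48 ± 0.952 against 3.74 ± 0.533 CPM (edgeR adjusted p = 0.722). Wnt11, another ligand of the beta-catenin-independent pathways, held 10.4, 14.9, 9.69, 11.4 and 10.6 CPM in controls and 7.80, 8.61, 7.26, 12.3 and 8.69 CPM after IL-33. It was not called (log2 -0.34 ± 0.17, edgeR adjusted p = 0.0793).

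Wnt2, the mesenchymal ligand of lung development, narrowly missed the threshold. It held 21.8, 16.4, 15.9, 14.3 and 17.2 CPM in controls and 17.0, 11.6, 15.4, 12.4 and 12.6 CPM after IL-33, with a log2 fold change of -0.32 ± 0.14 (edgeR adjusted p = 0.0529). It was called lower in limma-voom (adjusted p = 0.0414) and with the trend on transcript length and GC content removed (log2 -0.58, adjusted p = 0.00160). Library sizes alone and a fit with no low-count filter called it too (adjusted p = 0.0430 and 0.0375). It was also called without control 3, control 4 or IL-33 library 1 (adjusted p = 0.0488, 0.0257 and 0.0195).

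**Figure D2:**
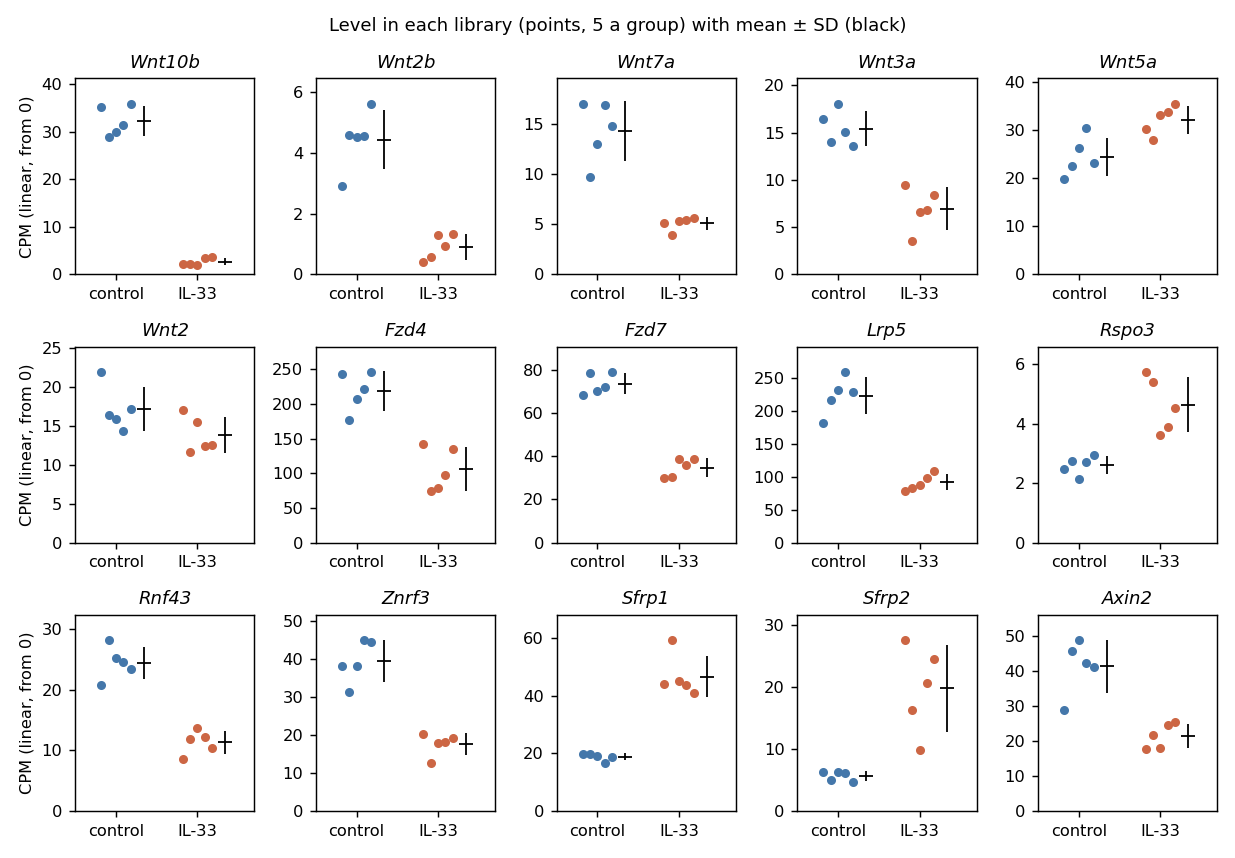
CPM in each library for 15 Wnt pathway genes, from 0 on a linear axis that differs between panels; coloured points are the 5 control and 5 IL-33 libraries, and black marks are mean ± SD. Wnt10b drops from 32.3 to 2.70 CPM, Sfrp1 climbs from 18.9 to 46.7 CPM, and the Wnt5a and Wnt2 groups overlap.

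The other 8 ligands were too low for the test. Wnt9b, which lies 24328 bases from Wnt3, had 17 reads over the 5 controls and 91 over the 5 IL-33 libraries. It ran from 0.141 to 0.438 CPM in controls and from 0.648 to 2.87 CPM after IL-33, with no overlap, and in a fit with no low-count filter its log2 fold change was 2.35 (edgeR adjusted p = 7.63e-05). In that fit 39.8% of 30478 genes passed. Wnt3 had 16 and 17 reads and Wnt6 had 15 and 20. Wnt10a, Wnt8a, Wnt16 and Wnt8b held 8 reads or fewer over all libraries. Wnt1, only 11706 bases from Wnt10b, had 0 reads in all 10 libraries, so its level lay under the limit of 3 reads in each.

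Levels of different genes were compared as CPM per kilobase of exon, from the total exonic length of each gene. In controls Wnt10b led the ligands at 9.5 ± 0.913, followed by Wnt2 at 7.59 ± 1.26, Wnt3a at 5.59 ± 0.663, Wnt7a at 4.50 ± 0.955, Wnt5a at 3.12 ± 0.514 and Wnt9a at 3.08 ± 0.302 (CPM per kilobase, SD, n = 5). Neighbours in this order overlapped in their library values. Wnt10b ran from 8.53 to 10.5 and Wnt2 from 6.33 to 9.68. After IL-33 the order was Wnt2 at 6.11 ± 1.02, Wnt5a at 4.10 ± 0.376 and Wnt3a at 2.52 ± 0.812, with Wnt10b in place 9 at 0.793 ± 0.229. The lowest Wnt2 value of 5.14 was above the highest Wnt5a value of 4.53, and the lowest Wnt5a value of 3.58 above the highest Wnt3a value of 3.43.

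Summed over the 19 ligands, the level ran from 39.6 to 44.3 CPM per kilobase in controls and from 20.3 to 25.1 after IL-33, so that the mean was 56.1% of control. Wnt10b made up 22.7% ± 1.58 of the ligand sum in controls and 3.36% ± 0.806 after IL-33. The share of Wnt5a went from 7.49% ± 1.29 to 17.5% ± 0.931 and that of Wnt2 from 18.1% ± 2.5 to 26.2% ± 4.28. Shares of 1 sum move against each other, so a larger share is not a higher level. The bars of ligand level per kilobase show this change of order.

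**Figure D3:**
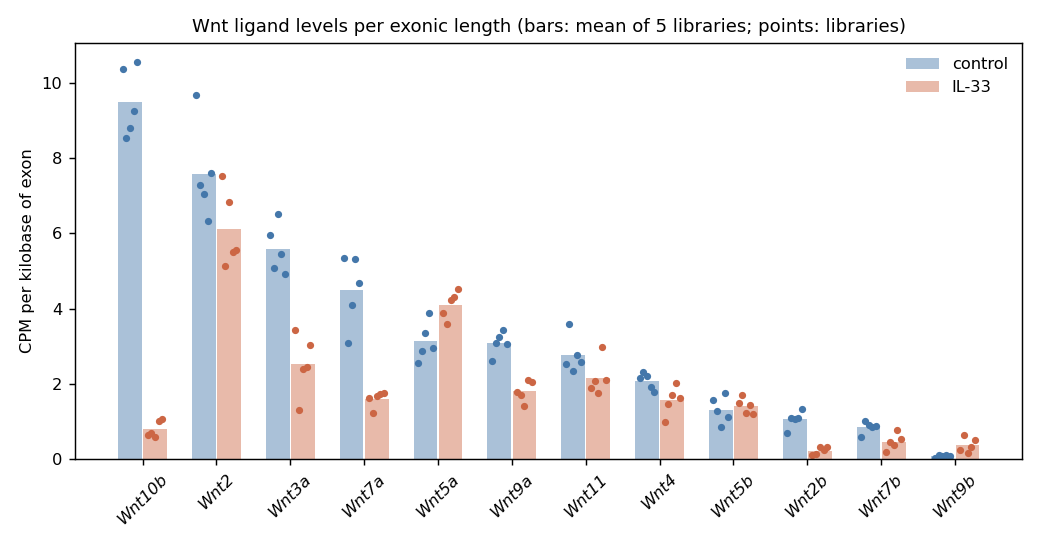
CPM per kilobase of exon for the 12 Wnt ligands with a mean of at least 0.5 CPM, ordered by their control level; bars are means of 5 libraries and points are libraries, on a linear axis from 0. Wnt10b is first in controls at 9.5 and Wnt2 is first after IL-33 at 6.11.

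Frizzled receptors fell in 8 of 9 tested cases and rose in 1, beside 34.8% lower and 35.1% higher over all genes tested. Fzd4, the receptor of the Norrin and Wnt signals that build retinal vessels (ENSMUSG00000049791, chromosome 7, 89404355 to 89413134), was the most abundant per kilobase in both groups. It held 243, 177, 207, 222 and 246 CPM in controls and 143, 75.1, 78.2, 97.4 and 135 CPM after IL-33. The IL-33 libraries split into 2 higher and 3 lower values, all under the lowest control, and the log2 fold change was -1.05 ± 0.21 (edgeR adjusted p = 0.000134).

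Fzd1 and Fzd7, which with Fzd2 form 1 branch of the receptor family, fell by similar amounts. Fzd1 held 87.9, 79.1, 76.7, 73.7 and 67.7 CPM in controls and 34.7, 31.1, 33.8, 38.2 and 40.3 CPM after IL-33 (log2 fold change -1.11 ± 0.09, edgeR adjusted p = 2.26e-07). Fzd7 held 68.1, 78.3, 69.9, 72.2 and 78.9 CPM in controls and 30.0, 30.2, 38.9, 35.9 and 38.6 CPM after IL-33 (log2 -1.08 ± 0.09, edgeR adjusted p = 3.01e-07). Fzd2 held 32.6, 25.5, 31.8, 30.6 and 29.9 CPM in controls and 18.4, 17.3, 19.8, 22.0 and 21.1 CPM after IL-33, a fall of smaller size (log2 -0.60 ± 0.09). None of these 3 receptors overlapped between groups.

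Of the branch of Fzd5 and Fzd8, Fzd8 held 17.5, 15.0, 15.9, 20.5 and 16.1 CPM in controls and 7.40, 8.95, 8.30, 9.5 and 8.84 CPM after IL-33 and fell by 0.98. Fzd5 held 31.4, 44.6, 33.0, 38.9 and 38.3 CPM in controls and 27.5, 23.5, 25.5, 28.3 and 25.3 CPM after IL-33 and fell by 0.51. Neither overlapped between groups. Of the exonic bases of Fzd5 17.8% lie in exons of the gene model Gm38058, so its count is less certain, and with the length and GC trend removed it was not called (log2 -0.21, adjusted p = 0.0563). Fzd3 and Fzd6, the receptors best known from planar cell polarity, fell by 0.73 and 0.60. Fzd3 held 13.9, 20.6, 17.3, 16.8 and 14.4 CPM in controls and 8.88, 7.58, 8.69, 11.7 and 12.5 CPM after IL-33, with no overlap. Fzd6 held 50.3, 40.4, 53.4, 57.5 and 51.7 CPM in controls and 33.3, 27.7, 30.7, 34.2 and 41.2 CPM after IL-33. The highest IL-33 value of Fzd6, 41.2 CPM, was just above its lowest control value of 40.4 CPM.

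Fzd10 rose, at a low level. Its control libraries held 0.424, 0.656, 0.113, 0.35 and 1.33 CPM and its IL-33 libraries 1.38, 1.38, 1.17, 1.56 and 1.78 CPM, with a log2 fold change of 1.35 ± 0.40 (edgeR adjusted p = 0.00811). Control 5 was the only control in the IL-33 range. Fzd9, its near relative, had 13 and 14 reads in the 2 groups and was not tested. Per kilobase the order Fzd4, Fzd1, Fzd7, Fzd6, Fzd2, Fzd5, Fzd8, Fzd3, Fzd10 and Fzd9 was the same in both groups. The sum over the 10 receptors ran between 88.8 and 100.3 CPM per kilobase in controls and between 41.7 and 59.4 after IL-33, and its mean was 53.0% of control.

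Both LRP co-receptors fell. Lrp5, in which mutations change bone mass (chromosome 19, 3584828 to 3686564), held 181, 216, 232, 259 and 229 CPM in controls and 79.0, 83.5, 87.9, 98.9 and 109 CPM after IL-33. The log2 fold change was -1.28 ± 0.12 with no overlap (edgeR adjusted p = 3.55e-07). Lrp6, its partner in the same role, held 119, 157, 140, 151 and 153 CPM in controls and 85.0, 76.9, 91.3, 88.1 and 104 CPM after IL-33, a log2 fold change of -0.69 ± 0.10 (edgeR adjusted p = 2.00e-05). Lrp5 took 68.5% ± 1.89 of their summed level per kilobase in controls and 59.1% ± 1.93 after IL-33. These shares ran from 65.9% to 70.7% and from 56.6% to 61.2%, with no overlap.

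The ligases that strip Frizzled receptors from the membrane fell together. Rnf43 held 20.7, 28.1, 25.2, 24.6 and 23.4 CPM in controls and 8.58, 11.8, 13.6, 12.1 and 10.3 CPM after IL-33 (log2 -1.11 ± 0.13, edgeR adjusted p = 3.94e-06). Znrf3 held 38.2, 31.4, 38.1, 44.9 and 44.6 CPM in controls and 20.2, 12.7, 18.0, 18.2 and 19.2 CPM after IL-33 (log2 -1.15 ± 0.15, edgeR adjusted p = 3.78e-06). Neither gene overlapped between groups.

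R-spondins moved in different directions. Rspo3, an R-spondin of vessel development (chromosome 10, 29452416 to 29535867), held 2.47, 2.74, 2.14, 2.71 and 2.94 CPM in controls and 5.72, 5.40, 3.63, 3.89 and 4.53 CPM after IL-33. Every IL-33 library was above every control, and the log2 fold change was 0.83 ± 0.14 (edgeR adjusted p = 0.000842). Of its exonic bases 13.1% lie in exons of the gene model Gm48159. Rspo4, the R-spondin of nail growth, held 4.38, 5.03, 4.05, 3.41 and 3.99 CPM in controls and 2.07, 2.64, 2.07, 1.87 and 1.86 CPM after IL-33 and fell with no overlap (log2 -1.0 ± 0.12, edgeR adjusted p = 0.000177).

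Rspo1, the most abundant R-spondin per kilobase in both groups, held 7.56, 6.56, 9.01, 12.2 and 10.8 CPM in controls and 7.99, 3.79, 4.93, 8.02 and 7.88 CPM after IL-33. Its groups overlapped, and it had a log2 fold change of -0.48 ± 0.27 and was not called (edgeR adjusted p = 0.0744). It was called lower without control 2 (log2 -0.59, adjusted p = 0.0339) and with the length and GC trend removed (log2 -0.70, adjusted p = 0.0191). Rspo2, which drives limb and lung growth in the embryo, had 19 control reads and 77 IL-33 reads and was not tested. It ran from 0 to 0.563 CPM in controls and from 0.648 to 2.37 CPM after IL-33, with log2 1.96 in the fit with no low-count filter (edgeR adjusted p = 0.00153). The antisense transcript Rspo4os held 2 control reads and 1 IL-33 read.

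Of the R-spondin receptors, Lgr4 held 8.41, 14.6, 8.79, 11.6 and 12.5 CPM in controls and 6.71, 4.02, 7.91, 8.41 and 6.31 CPM after IL-33, the groups touching at 8.41 CPM (log2 -0.73 ± 0.23, edgeR adjusted p = 0.00538). Lgr6 split its controls into 2 high and 3 lower libraries, with 18.7, 35.2, 16.4, 17.3 and 33.1 CPM in controls and 5.03, 15.3, 11.5, 16.9 and 14.1 CPM after IL-33. Its groups overlapped (log2 -0.93 ± 0.39, edgeR adjusted p = 0.0131), and with the length and GC trend removed it was not called (adjusted p = 0.0683). Lgr5, the stem cell marker of gut and hair follicle, had 21 and 14 reads and was not tested.

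Of the 4 secreted Frizzled-related proteins taken by their symbol 3 were tested, and these rose, beside 35.1% of all genes tested. The other, Sfrp5, was too low for the test and was lower after IL-33. Sfrp1, a Wnt-binding protein of lung mesenchyme (ENSMUSG00000031548, chromosome 8, 23411502 to 23449632), held 19.9, 19.9, 18.9, 16.8 and 18.7 CPM in controls and 44.2, 59.2, 45.1, 43.7 and 41.1 CPM after IL-33. The controls lay close together and well under every IL-33 library, and the log2 fold change was 1.31 ± 0.10 (edgeR adjusted p = 1.96e-07).

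Sfrp2, a related fibroblast product (chromosome 3, 83766321 to 83774316), had the largest rise among the tested genes. It held 6.22, 4.92, 6.19, 6.13 and 4.65 CPM in controls and 27.4, 16.3, 9.72, 20.6 and 24.5 CPM after IL-33 (log2 1.82 ± 0.28, edgeR adjusted p = 1.48e-05). The IL-33 libraries differed from each other more than the controls did. Of its exonic bases 16.1% lie in exons of the gene model Gm26771.

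Sfrp4, a phosphate-regulating member of the family, held 1.41, 2.41, 0.788, 1.23 and 1.61 CPM in controls and 0.789, 4.02, 3.37, 3.89 and 2.97 CPM after IL-33. IL-33 library 1 lay at the level of the lowest control while the other 4 were above every control (log2 1.01 ± 0.46, edgeR adjusted p = 0.0275). The call was lost in limma-voom (adjusted p = 0.0861) and without any of control 1, 3 or 4 or IL-33 library 2, 3 or 4 (adjusted p = 0.0525 to 0.0693). Sfrp5, expressed in fat and gut, was not tested, with 91 control reads and 26 IL-33 reads. It ran from 0.875 to 2.37 CPM in controls and from 0 to 0.804 CPM after IL-33, with no overlap and log2 -1.79 in the fit with no low-count filter (edgeR adjusted p = 0.00129). The level per kilobase summed over these 4 genes ran between 7.45 and 8.64 in controls and between 16.0 and 23.0 after IL-33, a mean of 255% of control.

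Dickkopf genes showed no called change. Dkk3, the divergent and by far most abundant member (chromosome 7, 112116017 to 112159057), held 102, 129, 118, 124 and 117 CPM in controls and 120, 108, 117, 129 and 125 CPM after IL-33. The groups overlapped almost fully, with a log2 fold change of 0.02 ± 0.07 (edgeR adjusted p = 0.816). Dkk2, which can both block and weakly activate the pathway, stood at 1.25 ± 0.384 CPM in controls and 1.54 ± 0.291 CPM after IL-33 and was not called (log2 0.29 ± 0.21). Dkk1, the classical LRP-blocking inhibitor, had 6 and 3 reads, and Dkk4 had 1 read in all. Neither was called in the fit with no low-count filter (edgeR adjusted p = 0.455 and 0.353).

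Axin2, a scaffold of the beta-catenin destruction complex that is itself induced by Wnt signals (ENSMUSG00000000142, chromosome 11, 108920349 to 108950783), fell. It held 28.9, 45.6, 48.8, 42.5 and 41.1 CPM in controls and 17.8, 21.8, 18.0, 24.5 and 25.3 CPM after IL-33. The lowest control stood above the highest IL-33 library, and the log2 fold change was -0.93 ± 0.17 (edgeR adjusted p = 6.91e-05). With the length and GC trend removed it was -0.69. Rnf43 and Znrf3, which are also known targets of beta-catenin, fell beside it as given above.

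Other genes of the pathway were taken from 6 lists, none of which holds any of the 50. Over all genes tested 34.8% were lower and 35.1% higher, so a list near these shares says nothing about its genes. The list of targets shares Notum and Apcdd1 with the inhibitors and Lef1 and Tcf7 with the nuclear factors. Both genes needed to release Wnt ligands fell: Wls, the ligand carrier, from 205.6 ± 11.7 to 139.5 ± 12.8 CPM, and Porcn, the enzyme that adds their lipid, from 29.5 ± 4.07 to 20.5 ± 2.02 CPM. Of 20 tested co-receptors and planar polarity genes 14 fell and 1 rose, with a median of -0.67. The gene that rose, Celsr3, averaged 0.597 CPM in controls, under the filter's cutoff of 0.96 CPM, and 1.36 CPM after IL-33. The filter could therefore pass Celsr3 through its higher group alone. Reck, a cofactor of WNT7 signalling, fell by 1.91, the formin gene Daam2 by 1.56 and the polarity gene Prickle2 by 1.37, and the most abundant per kilobase, Mcam, a cell adhesion gene, fell by 0.72.

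Other listed inhibitors held 6 lower and 5 higher of 14 tested, beside 34.8% lower and 35.1% higher over all genes tested. Among those called, Frzb rose from a mean of 0.502 to 1.19 CPM and Shisa6 fell from 1.53 to 0.608 CPM. Their lower means were under the filter's cutoff of 0.96 CPM, so the filter could pass them through their higher group alone. Shisa2, which holds Frizzled inside the cell, fell by 1.72, Notum, which removes the Wnt lipid, by 1.69 and Wif1, a secreted Wnt-binding protein, by 1.42. Shisa5, the most abundant of the list per kilobase, rose by 0.46. Whether each listed Shisa gene inhibits Wnt signals was not tested. Of 22 destruction complex and cytoplasmic genes 9 fell, 2 rose and 11 were not called, with the APC relative Apc2 at -1.75, the Dishevelled gene Dvl3 at -1.12, the Dishevelled-binding Ccdc88c at 0.95 and Ctnnb1, which encodes beta-catenin, at -0.39. Nuclear factors and cofactors fell in 11 of 19 cases and rose in 4, with the endothelial factor Sox7 at -1.18 (groups overlapping), the corepressor Tle2 at -1.15, the beta-catenin cofactor Bcl9l at -0.98 and Tle5 at 0.34.

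Listed targets of beta-catenin held 10 lower and 7 higher of 22 tested, beside 34.8% lower and 35.1% higher over all genes tested. Their median was -0.06, beside -0.007 over all genes tested. Notum fell as above, and Ccnd1, the cyclin D1 gene, fell by 0.49. Sox9, a factor of cartilage progenitors, rose from 2.20 ± 0.640 to 31.5 ± 7.63 CPM and Fst, the activin-binding follistatin gene, from 4.76 ± 0.860 to 37.05 ± 7.09 CPM. The strip plot of these lists shows the spread within each.

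**Figure D4:**
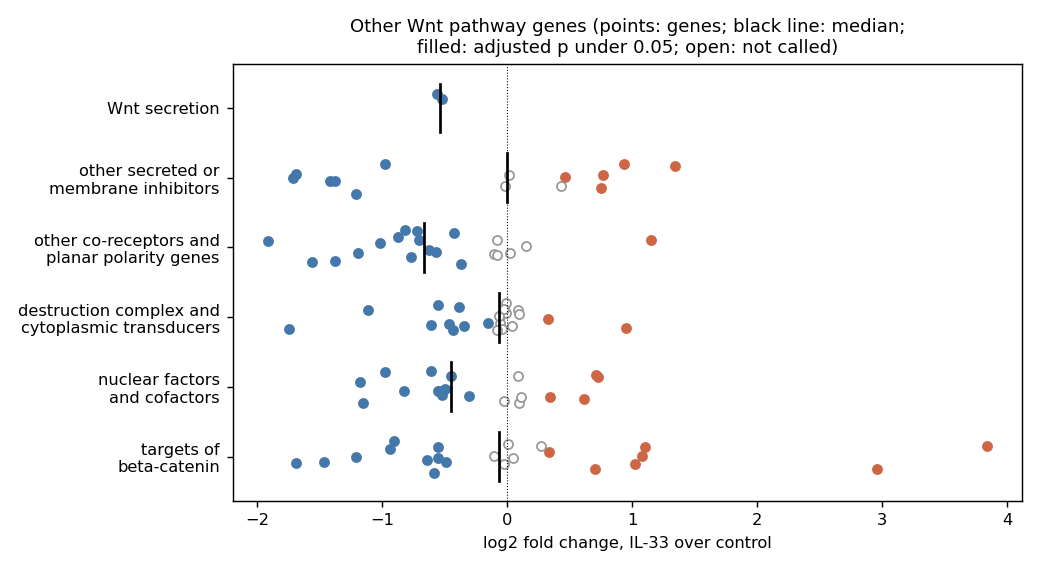
Log2 fold change of IL-33 over control for each tested gene of 6 lists of other Wnt pathway genes; points are genes, black lines are list medians, filled points passed an adjusted p of 0.05 and open points did not. Targets of beta-catenin span from Notum at -1.69 to Sox9 at 3.83.

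Counts in several of these lists depended on whether a trend of fold change on transcript length and GC content was removed. With it removed, 37.4% of the 15680 genes tested were higher and 30.8% lower. The destruction complex list then held 11 higher and 6 lower of 22, the nuclear list 7 higher and 8 lower of 19, the co-receptor list 4 higher and 11 lower of 20, the inhibitors 6 higher and 6 lower of 14 and the targets 10 higher and 9 lower of 22. The same setting left 25 of the 29 calls among the 50 genes in place with their direction. Fzd5, Lgr6, Wnt4 and Wnt7b lost their call, at log2 -0.21, -0.63, -0.27 and -0.55. The median of the 35 genes became -0.56, beside 0.045 over the genes tested in both fits.

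Markers of the cells that could hold these transcripts moved between the groups as well. Their counts stand beside 34.8% lower and 35.1% higher over all genes tested. Alveolar fibroblast markers fell in 11 of 11 cases, their summed level running from 6146 to 6675 CPM in controls and from 1970 to 2963 CPM after IL-33. Alveolar type 1 cell markers fell in 9 of 10 cases (7477 to 8295 CPM against 3106 to 4023 CPM) and endothelial markers in 8 of 11 (5705 to 6376 CPM against 3228 to 4041 CPM). Adventitial fibroblast markers rose in 7 of 10 cases and fell in 1 (1135 to 1343 CPM against 1534 to 1668 CPM). Ccl11, a chemokine gene, went from 4.61 to 162.9 CPM and Ly6a from 385.7 to 530.6 CPM, so these weigh in the sum. Dcn fell from 158 to 116.1 CPM, and Dpt and Serpinf1 were not called. With the length and GC trend removed 5 of these markers were higher and 2 lower. Leukocyte markers rose in 9 of 9 cases (509.5 to 851.8 CPM against 1994 to 2520 CPM) and cycling cell markers in 6 of 6 (41.9 to 54.1 CPM against 524.7 to 827.2 CPM). Mesothelial markers fell in 4 of 7 cases and rose in 2 (337.6 to 400.5 CPM against 189.2 to 266.1 CPM). Alveolar type 2 markers fell in 7 of 10 and rose in 2 (23444 to 27047 CPM against 19135 to 22937 CPM), and airway markers fell in 4 of 7 and rose in 1 (19097 to 21298 CPM against 11493 to 13403 CPM); with the length and GC trend removed no marker of either list was higher. In the airway list Scgb1a1, Scgb3a2, Cyp2f2 and Tppp3 fell, Dynlrb2 rose, and Foxj1 and Ccdc153 were not called. Scgb1a1 went from 17090 to 12040 CPM, so it weighs in the sum. Smooth muscle and pericyte markers fell in 5 of 12 cases and rose in 3 (1548 to 1897 CPM against 1570 to 1677 CPM). This sum pools opposite changes. Acta2, Tagln and Actg2 rose (log2 0.69, 0.62 and 1.14). Pdgfrb, Notch3, Cspg4, Myh11 and Cnn1 fell (log2 -1.33, -1.24, -1.05, -0.41 and -0.33), and Des, Lmod1, Higd1b and Cox4i2 were not called. Cardiac muscle markers fell in 5 of 8, with a wide control range (514.0 to 1974 CPM against 189.0 to 555.4 CPM). No marker was at 0 in all libraries. The part of these cells in the falls of ligands and receptors and in the rise of 3 secreted Frizzled-related proteins was not tested.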

How the data were processed

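Lung RNA was polyA-selected and made into strand-preserving libraries, per the labels' protocols. The submitters' processing notes name FastQC 0.11.6, MultiQC 1.6, STAR 2.5.4b, HTSeq 0.9.1 and GRCm38. No source used here gives the annotation release or the strand setting. It is therefore not known whether reads where genes overlap were counted for 1 gene or left out as ambiguous. The deposited files hold raw read counts per gene. Reads assigned to no single gene were left out. Their shares were 10.4% to 13.7% for reads outside genes, 0.862% to 0.945% for ambiguous reads and, for multiple alignments, 15.0% to 16.2% in controls and 20.0% to 22.8% after IL-33. Of 53465 genes 53274 matched a symbol.

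One edgeR 4.0.16 fit (R 4.3.3) held all 10 libraries and a term for group, after filterByExpr and TMM scaling (factors 0.969 to 1.03). Quasi-likelihood p-values were adjusted by Benjamini-Hochberg over all genes, with a threshold of 0.05. The SE used log2 CPM with a prior count of 2. Lengths, positions and overlaps come from GENCODE M21 (GRCm38). No member but Wnt4 (1.24%) shared 75-base windows with another gene's transcripts.

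The members and lists were chosen with earlier results of these data known. Every gene with a mean of at least 0.5 CPM, or tested, is named with values. Of each list, the gene most abundant per kilobase is named, and the 3 called genes that changed most among those averaging 1 CPM or more. Alternatives were DESeq2 size factors, library size alone, no filter, 1 CPM in 5 libraries, DESeq2 1.42.0, limma-voom (limma 3.58.1), the replicate number as a block, offsets for length and GC content (splines of 5 degrees of freedom), an adjusted p of 0.01, a test against 1.5-fold, the longest transcript as length and leaving out each library.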

Additional observations from a re-analysis of the deposited data

Results flagged for a closer look

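In 4 of 76 sets of 5 libraries, 1 library stood apart from the rest by Dixon's ratio at its 95% critical value of 0.71, and chance flags about 1 in 20 sets. Of these 4 sets 3 concern IL-33 library 2. Sfrp1 stood at 59.2 CPM there, above 41.1 to 45.1 CPM in the other IL-33 libraries. Wnt7a stood at 3.90 CPM, below 5.13 to 5.57 CPM. Rspo4 stood at 2.64 CPM, above 1.86 to 2.07 CPM. In IL-33 library 4, Wnt11 stood at 12.3 CPM, above 7.26 to 8.69 CPM, and without that library Wnt11 was called lower (log2 -0.48, edgeR adjusted p = 0.00985). Without IL-33 library 2, the log2 fold changes were 1.21 for Sfrp1, -1.41 for Wnt7a and -1.08 for Rspo4, and all 3 were called.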

How the results depend on the processing

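The counts of 6 genes higher and 23 lower among the 50, and of 10975 over all genes, stayed within 1.5 times under every alternative run except the test against a 1.5-fold change, which left 3, 13 and 4741. Without single libraries the counts ran from 5 to 7 higher and from 22 to 25 lower, and from 10517 to 11089 over all genes. The replicate number as a block gave 6 higher and 25 lower, and 11122 over all genes. With 28 of the 29 calls kept, it ended the Wnt4 call (adjusted p = 0.0508) and called Rspo1, Wnt2 and Wnt11. Libraries of the same number deviated together in only some cases (r = -0.063 to 0.242 over 5 pairs), and only number 1 correlated best with itself, so the numbers were not treated as pairs. An adjusted p of 0.01 kept 25 of the 29 calls. Only uncalled values near 0 changed sign: Dkk3 was -0.013 with no low-count filter, -0.018 with length and GC offsets and -0.016 with these and the replicate block. Without single libraries Dkk3 ran from -0.039 (without control 1) to 0.059, also below 0 without IL-33 library 4 (-0.005), and Wnt5b ran from -0.04 (without control 3) to 0.198. The longest transcript as length moved 8 of 38 control levels per kilobase by more than their SD, among them Wnt10b to 11.9. Of 700 fold changes under alternatives 643 stayed as they were, 36 lost and 15 gained a call and 6 changed sign. Of the 15 genes too low for the test, the fit with no low-count filter called Wnt9b, Rspo2 and Sfrp5 and did not call 11 (edgeR adjusted p = 0.353 to 0.937), where depth limits what could be seen. Wnt1 had no reads.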
